A study of Rattus norvegicus with 18 samples.

Results

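Sarcomere and myosin genes were followed across medullary thyroid carcinomas of MENX rats; these tumours arise from the C cells, which make calcitonin. Members were genes whose probe set carried exactly 1 symbol in the platform annotation and whose symbol named a myosin heavy or light chain, a troponin, a tropomyosin, an alpha-actinin, a myosin-binding protein C, a myozenin, a myomesin, telethonin, titin or nebulin. For each gene the probe set with the highest mean was kept. The rule found 43 of the 14506 genes measured: 30 striated muscle forms, 12 smooth muscle or general forms, and Tnni3k, which shares a name with troponin I but encodes a kinase. Telethonin and nebulin yielded no member, and Myom1 was the only myomesin. Only genes with a mean over all arrays of at least 6.32 on the log2 scale, the 30th percentile over probe sets, were tested, which left 39 members among 11370 genes. The 4 members below it, Myh13, Myl2, Myoz2 and Tnni3, are described and not tested. Probe sets with several symbols, among them those of Myh9 and of Myl6, were left out by the rule.

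All 18 animals were mutant for Cdkn1b, which encodes the cell cycle inhibitor p27Kip1, on the strain labelled Sprague–Dawley white eye/Wistar–Kyoto, and none was treated. There were 6 tumours of homozygous mutants aged 9 months, 6 of heterozygous mutants aged 9 months and 6 of heterozygous mutants aged 18 months, each with its own animal code. The labels give no sex, litter or batch, the mutation was present in every group, and wild-type or normal thyroid samples were not among the arrays. Values are log2 expression from Affymetrix arrays, so a difference of 1 is a 2-fold change, and the number of arrays limits the precision. Array medians lay between 7.55 and 7.65. The C cell gene Calca, which encodes calcitonin, lay between 13.75 and 14.12 in all tumours. Tg, the thyroglobulin of follicular cells, lay between 11.08 and 14.37. Cdkn1b was 0.29 ± 0.07 (SE) higher in homozygous than in heterozygous tumours at 9 months, without overlap of the 6 and 6 values, but did not pass the adjusted test (limma, adjusted p = 0.266).

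The sarcomere is the contractile unit of striated muscle. Myosin heavy chains form the thick filament and pull on actin, essential and regulatory light chains stiffen and tune the myosin neck, and the troponin complex with tropomyosin opens the thin filament when calcium rises. Titin spans the sarcomere from its border to its middle as a spring, alpha-actinins anchor actin at the Z-disc, and fast, slow and cardiac fibres use different members of most of these families. Non-muscle cells have related genes, such as Myh10, Myl12a, Tpm4 and Actn4, that build stress fibres, the cell cortex and the cleavage ring, and smooth muscle adds Myh11, Myl9 and Tpm2.

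Promoters of 4 members are shown because their genes stand for the patterns described below: Myh4 for fast fibres, Myh7 for slow fibres, Mybpc1 for a striated gene that departed from both, and Myh14 for the general forms. They are the 250 bases before the annotated gene start, from RefSeq (GRCr8), read 5′ to 3′ on the gene's strand. Capitals mark the motifs searched: the E-box CANNTG, bound by myogenic factors such as MyoD, the TATA box TATAAA, the MEF2 box and the CArG box of serum response factor.
Myh4, chr10:52421898-52422147, plus strand: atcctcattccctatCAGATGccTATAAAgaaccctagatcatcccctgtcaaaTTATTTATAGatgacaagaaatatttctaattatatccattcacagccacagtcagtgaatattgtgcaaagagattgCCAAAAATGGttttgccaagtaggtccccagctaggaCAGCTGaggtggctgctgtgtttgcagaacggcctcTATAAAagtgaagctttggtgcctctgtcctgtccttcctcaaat
Myh7, chr15:32438195-32438444, minus strand: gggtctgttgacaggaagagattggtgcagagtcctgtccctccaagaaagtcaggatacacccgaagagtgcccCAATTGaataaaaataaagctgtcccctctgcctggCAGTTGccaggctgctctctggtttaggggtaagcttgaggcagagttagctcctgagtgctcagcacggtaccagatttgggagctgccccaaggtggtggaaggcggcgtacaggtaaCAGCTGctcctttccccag
Mybpc1, chr7:24903374-24903623, minus strand: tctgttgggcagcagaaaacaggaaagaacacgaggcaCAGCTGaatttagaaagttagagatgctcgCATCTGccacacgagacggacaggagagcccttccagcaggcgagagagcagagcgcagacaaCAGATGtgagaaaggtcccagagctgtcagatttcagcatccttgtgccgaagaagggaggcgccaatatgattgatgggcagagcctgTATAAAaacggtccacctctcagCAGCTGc
Myh14, chr1:104295345-104295594, minus strand: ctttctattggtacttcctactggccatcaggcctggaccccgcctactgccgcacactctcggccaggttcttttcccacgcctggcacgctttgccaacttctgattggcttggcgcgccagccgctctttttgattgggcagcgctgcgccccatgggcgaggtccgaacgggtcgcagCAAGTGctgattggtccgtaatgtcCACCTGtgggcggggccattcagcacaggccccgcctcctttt

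The promoter of Myh4 held all 4 motifs: 2 E-boxes, a MEF2 box, a CArG box and 3 matches to TATAAA counted on both strands, of which the one at position -193 from the gene start lies inside the MEF2 box. Myh7 and Myh14 held E-boxes only, and Mybpc1 held 4 E-boxes and a TATA box at position -30. Promoters were found for 37 of the 43 members. Among 27 striated promoters 23 (85.2%) held an E-box, against 65.2% of all 27457 rat promoters of the same length. TATAAA was found in 8 (29.6%, against 13.1%), a MEF2 box in 6 (22.2%, against 1.74%) and a CArG box in 2 (7.41%, against 1.50%). Of the 10 fast promoters 7 (70.0%) held an E-box, 5 TATAAA, 3 a MEF2 box and 1, that of Myh4, a CArG box. All 5 slow promoters held an E-box, and 1 each held TATAAA, a MEF2 box and a CArG box. Of the 9 promoters of smooth or general forms 6 (66.7%) held an E-box and none held any of the other 3 motifs. No promoter was found for Myh11, Myl9 or Actn4, so these were not searched. A match to these letters is a description of the sequence and not a measured binding site.

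Striated forms varied between tumours of the same group far more than most genes did. The SD within groups, pooled over the 3 groups, had a median of 0.16 over the 11370 genes tested, and 5% of them exceeded 0.59. The median was 0.94 over the 30 striated forms, and 20 of them exceeded that value, among them all 11 fast-fibre genes (Myh1, Myh2, Myh4, Myl1, Myl11, Tnnc2, Tnni2, Tnnt3, Actn3, Mybpc2 and Myoz1; median 1.43). Of the 7 slow-fibre genes 5 exceeded it, with a median of 0.68. None of the 6 genes of cardiac or other striated forms did, with a median of 0.16. Their means were lower, from 6.29 to 7.82, against 6.99 to 10.66 for the fast genes. The division into fast, slow and cardiac forms is a textbook one and was made with the values known.

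**Figure D1:**
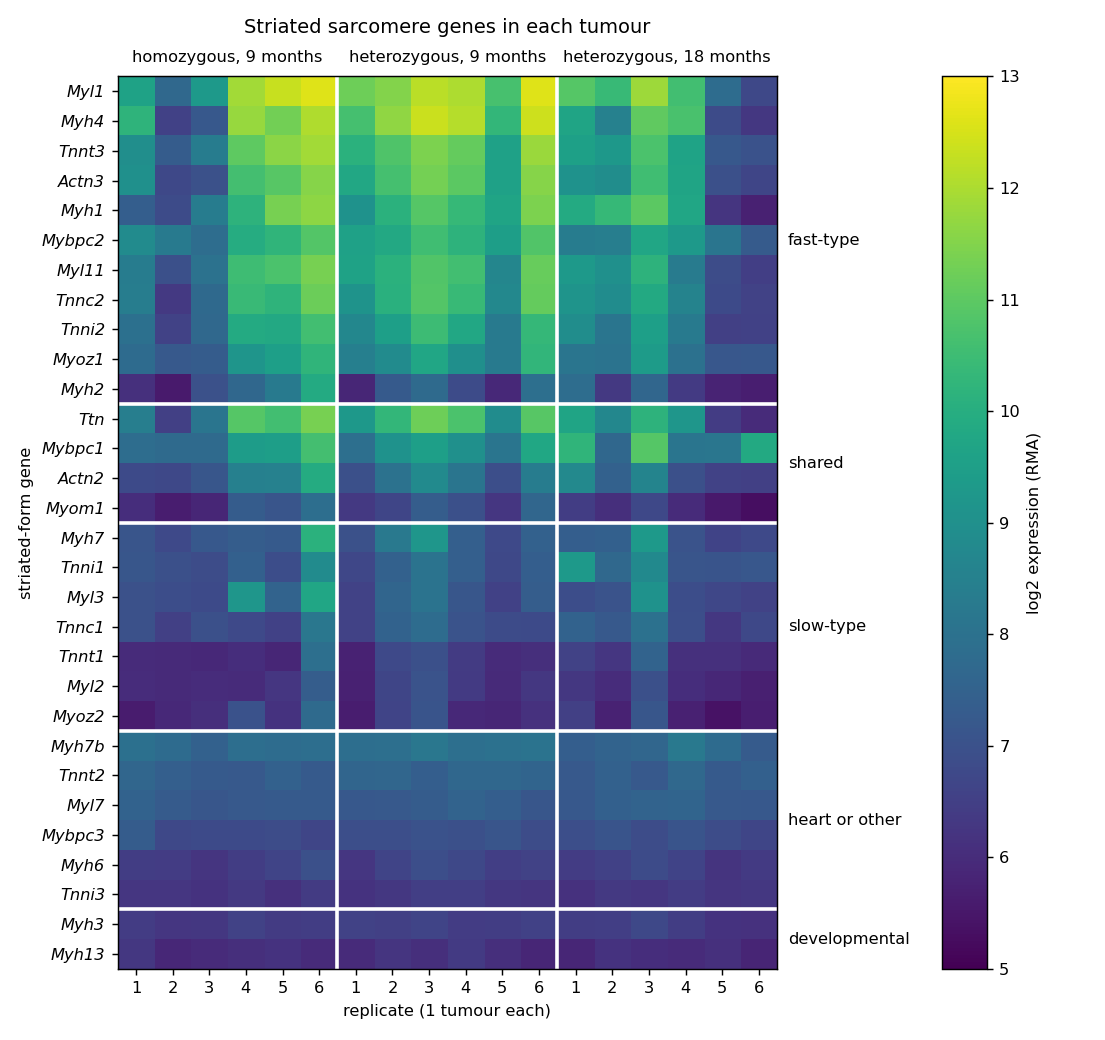
Log2 expression of each striated gene, with genes in rows grouped by fibre type and tumours in columns grouped by genotype and age. Fast-fibre genes rise and fall together by tumour within every group, while cardiac forms vary little.

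Myh4, the heavy chain of the fastest fibres (type IIB), ranged over 6.08 log2 units, from 6.30 in replicate 6 of the 18-month group to 12.38 in replicate 6 of the heterozygous 9-month group. In homozygous tumours it lay at 10.20, 6.55, 7.21, 11.76, 11.29 and 12.06 in replicates 1 to 6. In heterozygous tumours at 9 months it lay at 10.65, 11.67, 12.36, 12.12, 10.30 and 12.38, and at 18 months at 9.67, 8.53, 11.04, 10.70, 6.84 and 6.30. Low values thus occurred in homozygous replicates 2 and 3 and in 18-month replicates 5 and 6, and the 3 groups overlapped.

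The other fast heavy chains were Myh1 (type IIX), which ranged over 5.90, and Myh2 (type IIA), which ranged over 4.32. Myh2 lay at 9.88 in homozygous replicate 6 and at or below 8.28 in all other tumours. Myh3, Myh2, Myh1, Myh4, Myh8 and Myh13 neighbour each other on rat chromosome 10 and are similar in sequence, so probes may respond to more than 1 of them, which was not tested. Myh13, the extraocular form, stayed between 5.83 and 6.36, and the embryonic Myh3 between 6.14 and 6.74, across the same tumours.

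Thin filament and accessory genes of fast fibres followed the same tumours. The mean deviation of the 11 fast genes was 2.02 in homozygous replicate 6, 1.80 in heterozygous 9-month replicate 6 and 1.52 in replicate 3 of that group. It was -2.67 and -2.30 in 18-month replicates 6 and 5 and -2.32 in homozygous replicate 2. These 3 low tumours held 32 of the 33 places among the lowest 3 values of the 11 genes. They were picked by that count, and the 11 genes include Myh1, Myh2 and Myh4, so the count only describes them. In bulk tissue such as this, fewer muscle cells and less RNA per muscle cell cannot be told apart.

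The fast troponins were each highest in homozygous replicate 6 and lowest in 1 of these 3 low tumours. Tnnt3, which ties fast troponin to tropomyosin, ranged from 7.01 in 18-month replicate 6 to 11.88 in homozygous replicate 6. Tnnc2, the calcium sensor of fast fibres, ranged over 4.87 and Tnni2, the inhibitory subunit, over 4.07. Among the light chains Myl1, the essential chain of fast myosin, ranged over 5.87, and Myl11, the regulatory chain, over 4.86. Titin (Ttn), which fast, slow and cardiac fibres all use, ranged over 5.37, from 5.99 to 11.36. The Z-disc genes Actn3 (fast fibres) and Actn2 (all striated fibres) ranged over 4.88 and 3.43.

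**Figure D2:**
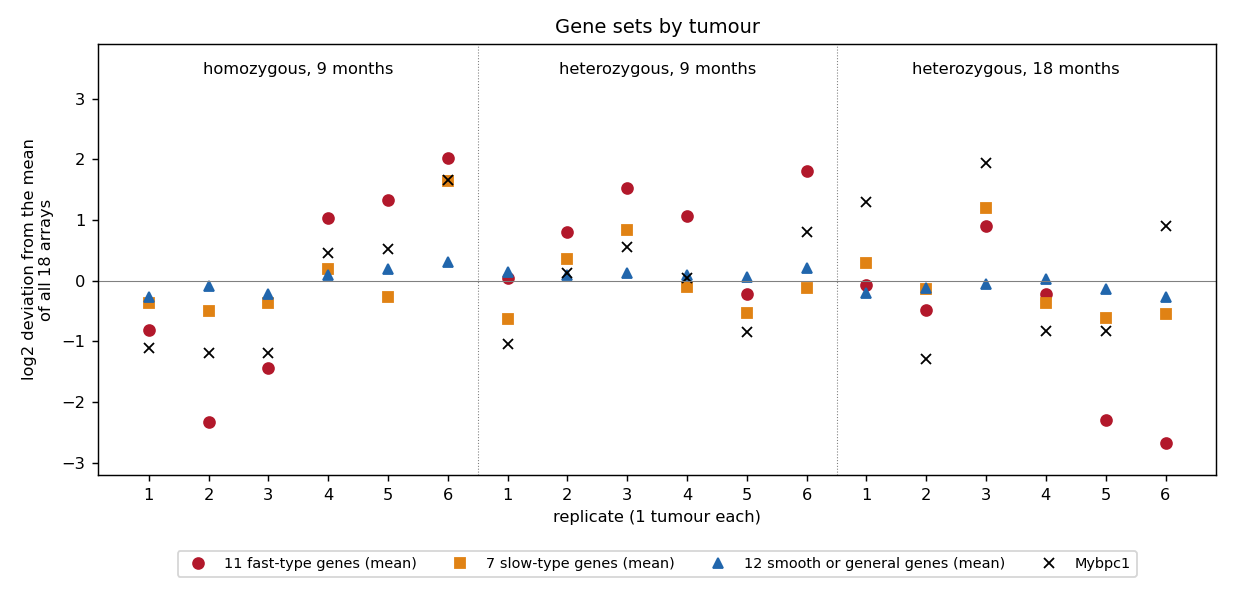
Mean log2 deviation from the 18-array mean for 11 fast-type genes, 7 slow-type genes and 12 smooth or general genes, and the deviation of Mybpc1, in each tumour (1 point per tumour and set). Fast genes span -2.67 to 2.02, the general forms stay between -0.28 and 0.30, and Mybpc1 stands 0.90 above its mean in 18-month replicate 6, where fast genes are lowest.

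The slow-fibre genes, Tnni1 excepted, were highest in the same homozygous tumour. Myh7, the heavy chain of slow and ventricular muscle, stood at 10.11 in homozygous replicate 6, 9.32 in 18-month replicate 3, 9.19 in heterozygous 9-month replicate 3 and 8.23 in replicate 2 of that group, and between 6.59 and 7.50 in the other 14 tumours. Heterozygous 9-month replicate 6 had a mean deviation of 1.80 for the fast genes and of -0.12 for the 7 slow genes. Homozygous replicate 6 had 2.02 and 1.65, and 18-month replicate 3 had 0.90 and 1.20. Of the 7 slow genes 6 had their highest value of all 18 tumours in homozygous replicate 6. They were Myh7, Myl2, Myl3, Tnnc1, Tnnt1 and Myoz2, while Tnni1 was highest in 18-month replicate 1 (9.29).

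The slow troponins differed in where they were high. Tnnt1, the slow troponin T, lay at 7.94 in homozygous replicate 6 and 7.54 in 18-month replicate 3, against 5.75 to 6.97 elsewhere. Tnni1, the slow troponin I, was also high in 18-month replicate 1 (9.29), where Tnnt1 was 6.57 and Myh7 was 7.40. Myl3, the slow and ventricular essential light chain, was high in homozygous replicates 4 (9.19) and 6 (9.73) and in 18-month replicate 3 (9.09), and at or below 8.04 in all others. In homozygous replicate 4 Myh7 lay at 7.36, so Myl3 was high there while Myh7 was not.

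Mybpc1, the slow-type myosin-binding protein C that fast fibres also contain, parted from the fast genes in the 18-month group. At 9 months its lowest values, 7.76 to 8.11, fell in homozygous replicates 1 to 3 and heterozygous replicates 1 and 5, the tumours lowest in fast genes within their groups. At 18 months it lay at 10.24, 7.67, 10.89, 8.12, 8.13 and 9.85 in replicates 1 to 6. Replicate 6, with the lowest Myh4 of all 18 tumours, thus had a Mybpc1 value above every 9-month tumour but homozygous replicate 6. Mybpc2, the fast-type protein, lay at 7.28 in that tumour, its lowest value.

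Cardiac forms stayed within narrow limits. The means of the 6 cardiac or other striated forms lay between 6.29 and 7.82, and the array medians between 7.55 and 7.65. Whether little signal keeps these ranges narrow was not tested. Myh6, the atrial heavy chain, ranged over 0.76, Myl7, the atrial light chain, over 0.44, Tnni3, the cardiac troponin I, over 0.40, Tnnt2, the cardiac troponin T, over 0.47 and Mybpc3, the cardiac myosin-binding protein C, over 0.66. The natriuretic peptide genes Nppa and Nppb, which mark heart muscle cells, lay between 6.24 and 6.72 and between 6.62 and 7.18. Of the 7 genes of the heart list Nkx2-5 lay between 7.11 and 7.74, Gata4 between 5.65 and 6.38 and Tbx20 between 5.65 and 6.36. Tbx5 ranged more widely, from 6.09 to 7.81, and so did Hcn4, a pacemaker channel, from 9.79 to 11.61. Both were highest in 18-month replicate 5. Hcn4 had a mean of 10.11 in heterozygous tumours at 9 months.

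Most other muscle genes had their extremes in the same tumours as the fast forms. Of 44 genes tested in the lists of other filament, calcium release and energy genes, 37 were highest in 1 of the 3 tumours highest in fast genes and 31 were lowest in 1 of the 3 lowest. Acta1, the skeletal muscle actin, lay between 8.20 (18-month replicate 6) and 13.33 (homozygous replicate 6), and Ckm, the muscle creatine kinase, between 8.09 and 12.69 in the same 2 tumours. Myoglobin (Mb) lay between 7.16 and 12.73, again in these 2. Sln, an inhibitor of the calcium pump, and Actc1, the cardiac actin, departed from this. Both were highest in homozygous replicate 4 (10.08 and 10.32), and in heterozygous 9-month replicate 6 they lay at 6.86 and 7.31. Means of the list of other thick and thin filament genes (22 measured) lay between 7.36 and 9.13 in homozygous tumours and between 7.20 and 8.57 at 18 months, with a median of 8.45 and a highest value of 8.84 in heterozygous tumours at 9 months. The factors that drive muscle formation, Myod1, Myog and Myf5, stayed between 6.18 and 6.94 in all tumours. Myf6, the factor of mature muscle fibres, was below the filter and ran from 5.44 to 6.83. It was highest in homozygous replicate 6, heterozygous 9-month replicate 6 (6.81) and 18-month replicate 3 (6.74) and lowest in 18-month replicates 5 and 6 and homozygous replicate 2 (5.48). How far the amount of muscle in each specimen sets these values was not tested.

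The genotypes were compared at the same age, 9 months. None of the 26 striated and 12 smooth or general forms tested passed an adjusted p of 0.05 (limma, Benjamini-Hochberg over 11370 genes). Over all genes 0% passed it either. Fits with only these groups (24 genes) or with array weights (118 genes) called some genes, but no striated or general member passed in any alternative tried. At an unadjusted p under 0.05 stood Tnnt2 and Myh10, so 1 of 26 striated and 1 of 12 general forms, against 8.75% of all genes. Differences were below 0, that is lower in homozygous tumours, for 22 of 26 striated and 8 of 12 general forms, against 49.2% of all genes. Every member had overlapping groups, while 0.915% of all genes were lower and 0.651% higher without overlap. The 11 fast genes had a median difference of -0.94, with a median SE of 0.77, against a median of 0.00 and a median SE of 0.09 over all genes. That median was -0.47 without homozygous replicate 2 and -0.31 with array weights, under which 18 of 26 striated differences were below 0. Because these genes rise and fall together by tumour, their shared direction is not a count of separate observations.

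The 4 striated genes described next had the smallest p in this comparison. Tnnt2 was 7.39 ± 0.16 (SD, n = 6) with 2 mutant copies and 7.59 ± 0.11 with 1, a difference of -0.20 ± 0.09 (SE; limma, adjusted p = 0.544). Myh4 was 9.84 ± 2.39 and 11.58 ± 0.90, a difference of -1.74 with a 95% interval from -3.85 to 0.38 (adjusted p = 0.614). Actn3 differed by -1.35 (95% interval -3.12 to 0.42) and Mybpc2 by -0.73 (95% interval -1.76 to 0.30). These intervals leave room for a large fall as well as for none. Homozygous replicates 4 to 6 were above the median of their group and replicates 1 to 3 below it for all 11 fast genes.

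Among slow genes Myl3 had the largest difference, 0.64 ± 0.53 (SE), with homozygous replicates 4 and 6 at 9.19 and 9.73 and the other 4 between 6.80 and 7.56. Myh10, a non-muscle myosin heavy chain (IIB) of cell division and motility, was 9.59 ± 0.15 in homozygous and 9.44 ± 0.11 in heterozygous tumours, 0.15 ± 0.07 higher (limma, adjusted p = 0.557). Homozygous replicate 3 (9.85) and replicate 2 (9.68) were its only values above all heterozygous ones at 9 months. Myl9, a regulatory light chain of smooth muscle, was 0.25 ± 0.12 lower (adjusted p = 0.578).

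**Figure D3:**
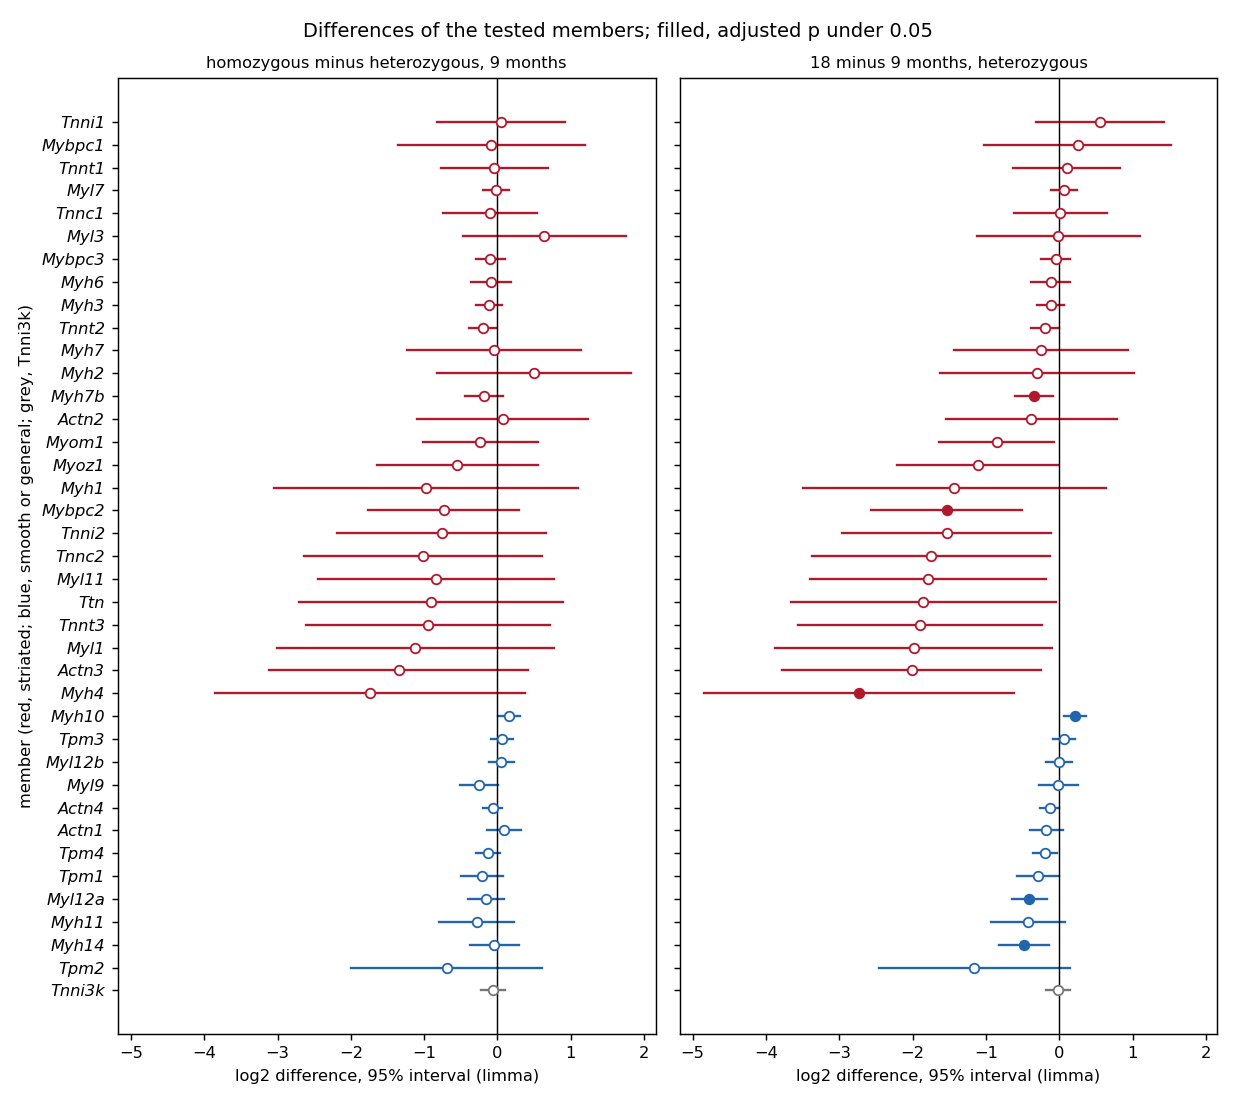
Log2 differences with 95% intervals of limma for each tested gene, homozygous minus heterozygous tumours at 9 months and heterozygous tumours at 18 minus 9 months, by class. Intervals of fast genes are wider than those of the general forms other than Tpm2, and 6 genes pass the adjusted test, all in the age comparison.

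Heterozygous tumours of 18 months were then compared with those of 9 months. Of the striated forms Mybpc2, Myh4 and Myh7b fell, 3 of 26 tested (11.5%), and none rose. Over all genes 44.1% passed, 22.4% lower and 21.6% higher, so the striated share was below that of all genes. Differences were below 0 for 21 of 26 striated genes, against 50.7% of all genes, and for all 11 fast genes. The fast genes had a median difference of -1.75, against 0.00 over all genes. Without 18-month replicates 5 and 6, the tumours lowest in fast genes, differences were below 0 for 15 of 26 striated and 10 of 11 fast genes, all but Myh2, with a fast median of -0.94; leaving them out was chosen after the data were seen. No striated or general gene had groups that did not overlap, against 9.00% of all genes lower and 9.07% higher without overlap.

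Mybpc2, the fast-type myosin-binding protein C that braces the thick filament, fell 2.89-fold. At 9 months its lowest, median and highest values were 9.47, 10.01 and 10.83, and at 18 months 7.28, 8.39 and 9.73. Only replicate 3 of the 18-month group (9.73) stood above a 9-month value. The difference was -1.53 ± 0.49 (SE; limma, adjusted p = 0.0178), and the adjusted p stayed between 0.0106 and 0.0455 when any 1 array was left out. It was 0.0952, with a difference of -1.11, when 18-month replicates 5 and 6 were left out together.

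Myh4 fell 6.65-fold, from 11.58 ± 0.90 to 8.85 ± 1.98 (SD, n = 6). Replicates 3 and 4 at 18 months (11.04 and 10.70) lay within the range of the 9-month tumours, and the other 4 lay below it. The difference was -2.73 ± 1.00 (SE; limma, adjusted p = 0.0354). The call was lost without heterozygous 9-month replicate 2, 3, 4 or 6 or 18-month replicate 2, 5 or 6, with adjusted p-values up to 0.0855. Without 18-month replicates 5 and 6 together the difference was -1.60 (adjusted p = 0.212).

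Myh7b, an ancient slow-tonic myosin heavy chain, fell by 0.34 ± 0.12 on the log2 scale, a 1.27-fold change (limma, adjusted p = 0.0329). It lay between 7.90 and 8.16 at 9 months. At 18 months it lay at 7.39, 7.56, 7.65, 8.22, 7.78 and 7.29 in replicates 1 to 6, so replicate 4 was the highest of all 18 tumours. The call was lost without heterozygous 9-month replicate 3, 5 or 6 or 18-month replicate 1, 2, 3 or 6, with adjusted p-values up to 0.0816, without 18-month replicates 5 and 6 together (0.0894), and when only the 2 compared groups were fitted (0.0551).

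The other fast genes did not pass the adjusted test. Actn3 differed by -2.01 (95% interval -3.78 to -0.25, adjusted p = 0.0607), Tnnt3 by -1.90 (-3.56 to -0.24, 0.0599) and Myl1 by -1.99 (-3.87 to -0.10, 0.0814). Ttn differed by -1.85 (95% interval -3.66 to -0.05, adjusted p = 0.0888). At an unadjusted p under 0.05 stood 13 of 26 striated genes, 9 of them fast ones, against 51.4% of all genes. The count of 3 striated calls was sensitive to single arrays. It was 9 without 18-month replicate 3, 7 without homozygous replicate 2, 5 without homozygous replicate 6 or 18-month replicate 4, and 1 without heterozygous 9-month replicate 6 or 18-month replicate 2 or 6. With only the 2 compared groups in the fit it was 9, and without 18-month replicates 5 and 6 together it was 0.

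Of the slow genes 0 of 5 tested passed, 2 differences were below 0 and the median was 0.02. Tnni1 was 0.55 ± 0.41 (SE) higher at 18 months, and Myl3 and Tnnc1 differed by -0.01 and 0.02. Mybpc1 was 0.25 higher, with a 95% interval from -1.02 to 1.53. Whether slow and fast genes differ in their change with age was not tested. Among cardiac forms Tnnt2 differed by -0.19 ± 0.09 (adjusted p = 0.0856) and Myl7 by 0.07 ± 0.09.

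**Figure D4:**
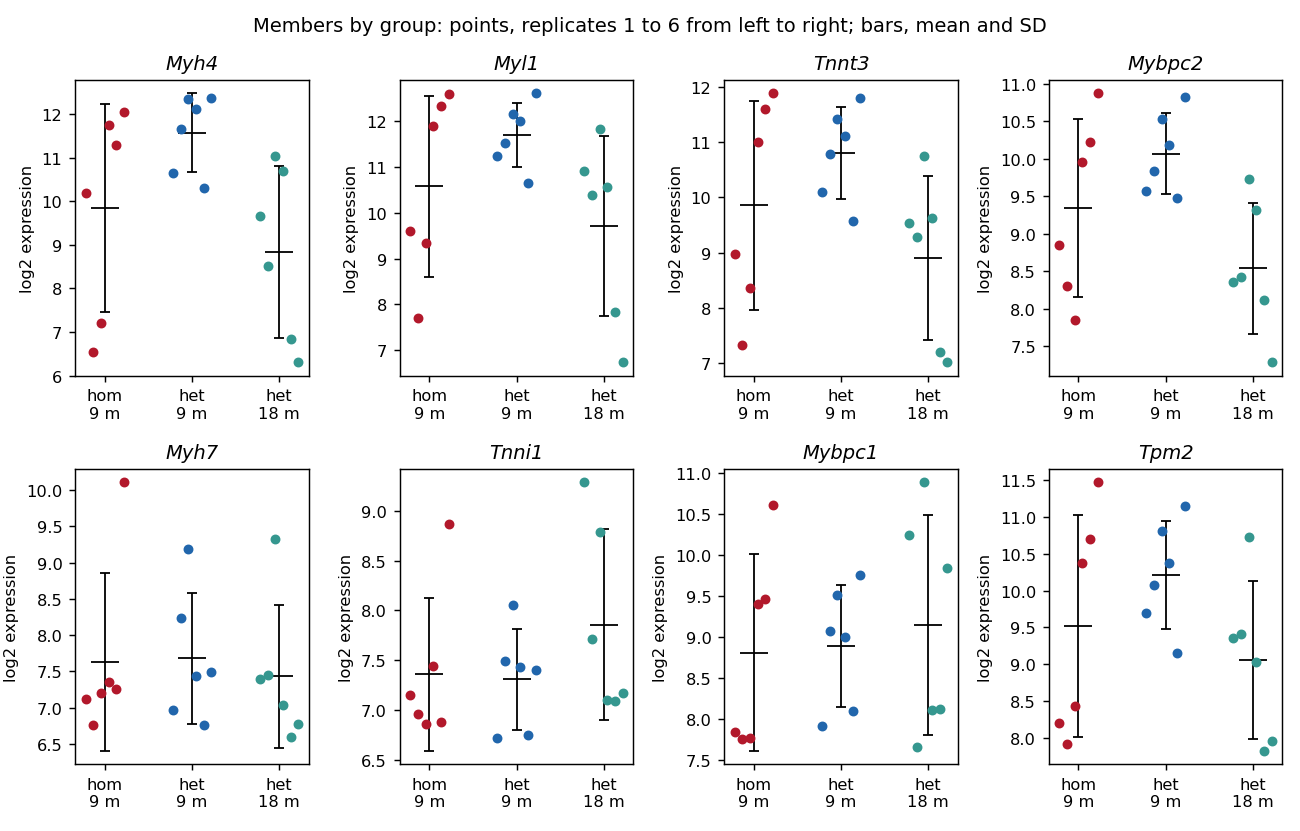
Log2 expression of selected striated genes in each tumour (points, replicates 1 to 6 from left to right in each group) with group mean and SD (bars). Myh4 and Mybpc2 lie lower on average at 18 months with overlap between groups, and Mybpc1 is high in 18-month replicates 1, 3 and 6.

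Smooth muscle and general forms were steadier. The SD within groups had a median of 0.20 over the 12 genes, and only Tpm2 (1.15) exceeded the 95th percentile of all genes. In the age comparison 3 of 12 (25%) passed the test, Myl12a and Myh14 lower and Myh10 higher, a smaller share than the 44.1% of all genes. Differences were below 0 for 10 of 12, against 50.7% of all genes, with a median of -0.18. Among them Myl12b and Myl9 each differed by only -0.01. The count was 8 with array weights, with median centring, or without heterozygous 9-month replicate 1 or 6 or 18-month replicate 1. The 12 genes were read in the same tumours, so their direction is not a count of separate observations.

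Myl12a, a regulatory light chain of non-muscle myosin II, fell by 0.41 ± 0.12 on the log2 scale (1.33-fold; limma, adjusted p = 0.00921). It lay between 10.23 and 10.48 at 9 months, and at 18 months at 9.56, 9.80, 9.85, 10.25, 10.26 and 9.90. Replicates 4 and 5 were thus within the 9-month range and the other 4 below it. Myl12b, its close relative, differed by -0.01 ± 0.08 (adjusted p = 0.944). A second probe set of Myl12b differed by 0.04.

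Myh14, the non-muscle heavy chain IIC of epithelial cells, fell by 0.48 ± 0.16 on the log2 scale (1.40-fold; limma, adjusted p = 0.0223). It lay between 9.49 and 9.69 at 9 months, and at 18 months at 8.96, 8.64, 8.69, 9.73, 9.48 and 9.16. Replicate 4 was above every 9-month tumour and replicate 5 was level with the lowest of them. The call was lost without 18-month replicate 2 or 3, with adjusted p-values up to 0.0592.

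Genes of follicular cells stood with these values. The mean of the follicular list (10 genes measured) was 10.73 and 10.45 in 18-month replicates 4 and 5 and between 7.36 and 9.34 in the other 4, against 10.89 to 10.99 in heterozygous tumours at 9 months. Of its 9 genes tested 8 fell with age and none rose, while 22.4% of all genes fell. The endothelial list mean was likewise 9.64 and 9.47 in replicates 4 and 5 and 7.98 to 8.78 in the other 4. All 7 adipocyte genes tested fell as well, with list means of 6.96 to 8.30 at 18 months and 7.84 to 9.24 in heterozygous tumours at 9 months. Homozygous replicate 3, which had the lowest follicular mean of its group (10.01), also had that group's lowest Myh14 (9.09), Myl12a (9.81) and Myh7b (7.47). The part of follicular, vascular and fat cells in these differences was not tested.

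Myh10 rose by 0.22 ± 0.07 on the log2 scale (1.16-fold; limma, adjusted p = 0.0202). It lay between 9.31 and 9.63 at 9 months and between 9.56 and 9.76 at 18 months, and only replicate 6 of the 9-month group (9.63) reached into the later range. The adjusted p was at most 0.0499 when any 1 array was left out, 0.0573 without 18-month replicates 5 and 6 and 0.0764 without 18-month replicates 4 and 5. The mean of the C cell list (11 genes) lay between 11.01 and 11.61 at 9 months and between 11.77 and 12.87 at 18 months in heterozygous tumours. Of its genes 9 rose with age and none fell, while 21.6% of all genes rose. Homozygous replicate 3 had the highest C cell mean (12.60) and the highest Myh10 (9.85) of its group. At 18 months replicates 4 and 5 had the lowest C cell means (11.77 and 12.13) and the highest Myh10 (9.72 and 9.76). The part of the C cell share in the rise of Myh10 was not tested. The 2 myosins of the same class thus went opposite ways with age, Myh14 lower and Myh10 higher. Myh9, the third of that class, was not analysed here.

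Tropomyosins and alpha-actinins did not pass. Tpm2, the beta tropomyosin of smooth and skeletal muscle, followed the striated genes, with 11.47 in homozygous replicate 6 and 7.82 and 7.96 in 18-month replicates 5 and 6. It differed by -1.16 ± 0.62 with age (adjusted p = 0.14). Tpm1, used by striated, smooth and other cells, differed by -0.29 ± 0.14 (adjusted p = 0.0942) and Tpm4, a general form, by -0.19 ± 0.08 (adjusted p = 0.0588). Tpm3 differed by 0.07 ± 0.07. Actn4, which cross-links actin in non-muscle cells, spanned 11.48 to 11.86 in all 18 tumours and differed by -0.13 ± 0.06 (adjusted p = 0.0994). Actn1 differed by -0.18 ± 0.11 (adjusted p = 0.202).

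Genes of smooth muscle and pericytes, the contractile cells of vessel walls, were read beside these. Myh11, the smooth muscle heavy chain, differed by -0.42 ± 0.24 with age (adjusted p = 0.166), and Myl9 by -0.01 ± 0.12. Acta2, the smooth muscle actin, lay between 11.26 and 12.19 in all tumours. Of 12 smooth muscle genes tested 1 fell, Pln (-0.66 ± 0.22), a call lost without 18-month replicate 1, and none rose. Of 6 pericyte genes 1 rose, Pdgfrb (0.43 ± 0.14), a call lost without heterozygous 9-month replicate 3 or 18-month replicate 1 or 2. Among all genes tested the shares were 22.4% lower and 21.6% higher with age. At 9 months Myh11 was lowest in homozygous replicates 1 (7.81) and 3 (8.36), and the smooth muscle list mean was lowest there too (8.16 and 8.31).

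**Figure D5:**
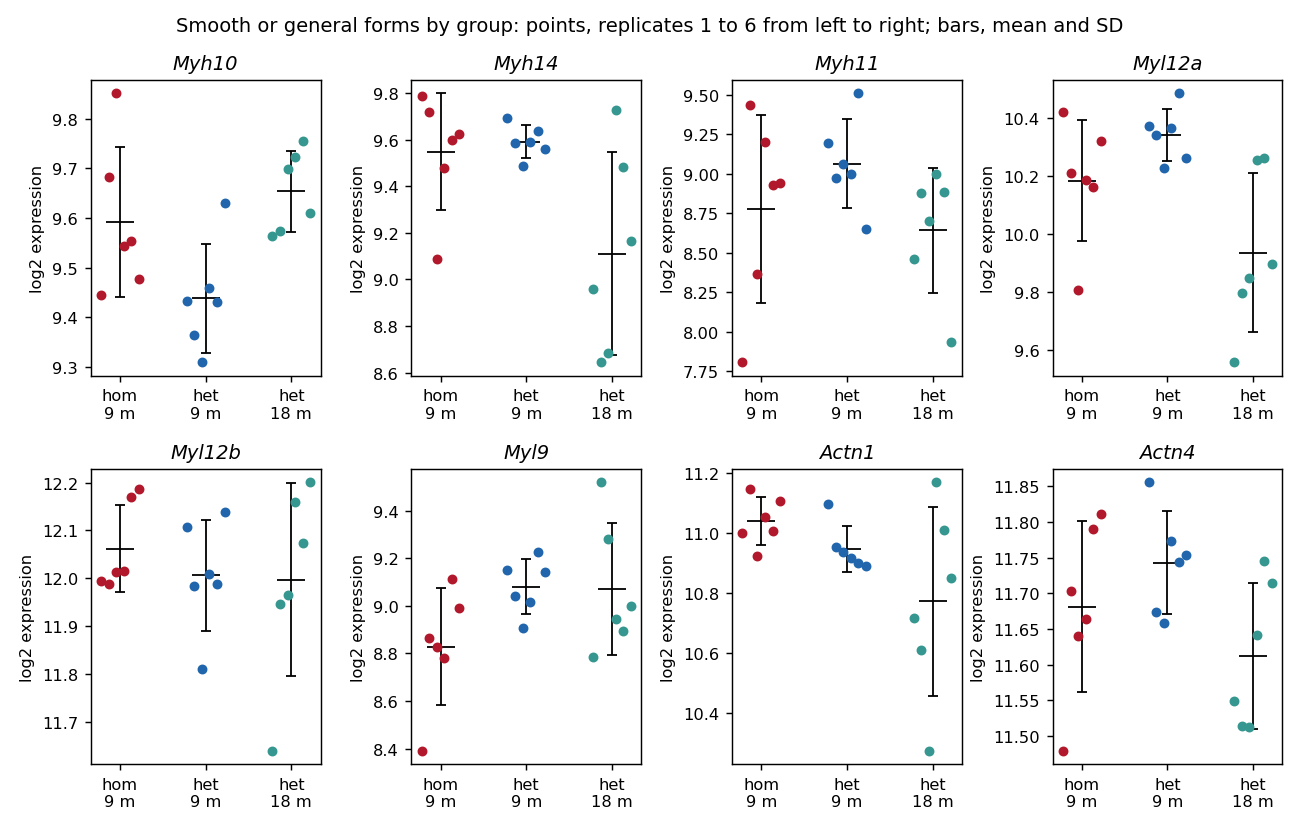
Log2 expression of 8 smooth muscle and general forms in each tumour (points, replicates 1 to 6 from left to right) with group mean and SD (bars); axes differ between genes. Myh14 and Myl12a are lower at 18 months except in replicates 4 and 5, and Myh10 is higher.

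The other genes of the contractile apparatus were read from lists. Over all genes 22.4% fell and 21.6% rose with age, and the counts of each list are read against these shares. Of 18 other thick and thin filament genes tested 4 fell with age, a share level with that of all genes, and none rose, with a median of -0.71. Tmod4, which caps thin filaments in skeletal muscle, fell by 1.52 ± 0.36 on the log2 scale (limma, adjusted p = 0.00322). Cryab, a small heat shock protein, fell by 1.28 ± 0.33 and Lmod2, an actin nucleator, by 1.11 ± 0.29. The groups did not overlap for these 3, while 9% of all genes were lower without overlap. Mybph, a relative of the myosin-binding proteins C, fell by 0.22 ± 0.09 (adjusted p = 0.0491), a call lost in 13 of 18 fits that left out 1 array. Of 14 genes of excitation and calcium release 1 fell, Jph1, which joins the sarcoplasmic reticulum to the cell membrane (-1.46 ± 0.23, adjusted p = 0.000412). It lay between 8.82 and 9.62 at 9 months and between 7.28 and 8.45 at 18 months. Jph1, Lmod2 and Cryab were highest at 18 months in replicates 4 and 5, and the same 2 tumours were highest for the follicular list. Myh4 lay at 10.70 in replicate 4 and at 6.84 in replicate 5, and Tmod4 was highest at 18 months in replicate 3 (9.78).

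Of 12 genes of muscle energy supply 1 fell, Car3 (-1.53 ± 0.56, adjusted p = 0.0348), although the median was -1.22. The call of Car3 was lost in 7 of 18 fits that left out 1 array, with adjusted p-values up to 0.0862 (without 18-month replicate 6). Of 5 muscle transcription factors tested 2 rose, Mef2d (0.42 ± 0.07) and Six4 (0.38 ± 0.09), both also used outside muscle. Of 5 heart genes tested Hcn4 rose (1.02 ± 0.19) and none fell.

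Of 15 regulators of non-muscle myosin tested 5 rose and 3 fell with age, while 21.6% of all genes rose and 22.4% fell. Limk1, the kinase that inactivates cofilin, rose by 0.86 ± 0.13 (limma, adjusted p = 0.00037) and Cit, the citron kinase of the cleavage ring, by 1.37 ± 0.26. Ppp1r12b, a targeting subunit of myosin phosphatase, rose by 0.31 ± 0.06. Rhoa, the GTPase upstream of myosin, fell by 0.26 ± 0.06. Of 16 genes of actin and stress fibres 4 fell and 1 rose. Pdlim1 (-1.20 ± 0.28), Pdlim5 (-0.72 ± 0.14) and Csrp1 (-0.86 ± 0.22), LIM proteins of actin bundles, and Ccn2 (-0.81 ± 0.17), a matrix protein, fell, while Cfl1, cofilin, rose (0.36 ± 0.12).

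Between homozygous and heterozygous tumours at 9 months none of the genes in these lists passed. The smallest p in each list belonged to Actc1 (0.88 ± 0.43), Jsrp1 (-0.20 ± 0.09), Ckm (-0.95 ± 0.76), Mef2d (0.25 ± 0.07), Hcn4 (0.59 ± 0.19), Lmod1 (-0.25 ± 0.11), Rgs5 (-0.22 ± 0.16), Ppp1r12b (0.21 ± 0.06) and Ccn1 (0.40 ± 0.16). The next smallest belonged to Des (-0.69 ± 0.52), Sln (0.94 ± 0.43), Fabp3 (-0.44 ± 0.36), Myog (-0.14 ± 0.07), Nppb (-0.16 ± 0.09), Cald1 (-0.19 ± 0.11), Abcc9 (-0.25 ± 0.22), Ppp1r14b (-0.17 ± 0.06) and Actg1 (-0.12 ± 0.07). Values are differences with SE, and limma's adjusted p-values ran from 0.289 (Mef2d) to 0.744 (Abcc9).

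Tnni3k, the cardiac kinase that the name rule brought in, lay between 6.45 and 6.91 in all tumours. It differed by -0.07 ± 0.08 between genotypes and by -0.01 ± 0.08 with age, and neither passed (limma, adjusted p = 0.813 and 0.924).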

How the data were processed

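The authors deposited log2 expression values of 29214 probe sets for 18 arrays. Per the submitters' processing notes the tools were Affymetrix Expression Console, version 1.3.0.187, and RMA, with no order given. RNA was whole-transcript amplified and biotin-labelled per the labels' protocols. Symbols came from the platform annotation: 15310 probe sets had 1 symbol, 323 several and 13581 none. By gene ID 42 of 43 members were found in RefSeq.

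From these values limma 3.58.1 (lmFit, eBayes; R 4.3.3) was fitted with 1 mean per group over all 18 arrays, and all tests were two-sided. Adjusted p-values are Benjamini-Hochberg values over 11370 genes from this fit, unless left-out arrays or another setting are named. Genes passed below 0.05. The tests set each mean difference against the spread between tumours. Each called member and each called gene of the lists (at most 4 per list), or the 2 with the smallest p, was named. Members, lists and tests were chosen with earlier results of these data known. The replicate numbers were not taken to pair the arrays. The fit was tested on simulated arrays. Alternatives were other filters, a replicate block, only the compared groups, eBayes trend and robust, array and group variance weights, centring, quantile normalization, mean over probe sets, and leaving out arrays.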

Additional observations from a re-analysis of the deposited data

Results flagged for a closer look

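Single tumours far from the other 5 of their group were looked for in the 43 genes and 3 groups, 129 sets of values, by the gap to the nearest value over the range. Chance alone singles out about 5% of such sets. Every set singled out is listed here, and slow-fibre genes of the same tumour are not separate observations. In homozygous replicate 6 the slow-fibre genes Myh7 (10.11), Myl2 (7.36), Tnnc1 (8.18), Tnni1 (8.87) and Tnnt1 (7.94) stood above the rest. In 18-month replicate 3 Myh7 (9.32) and Myl3 (9.09) stood above and Tpm4 (11.36) below. Homozygous replicate 1 was high for Mybpc3 (7.33) and replicate 3 low for Myh7b (7.47). In heterozygous tumours at 9 months replicate 1 was high for Actn1 (11.10) and replicate 3 low for Tnnt2 (7.38). The 11 fast-fibre genes had no such value in any group.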

How the results depend on the processing

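With only the compared groups fitted, 24 genes were called between genotypes instead of 0, and 9 striated members with age instead of 3. Array weights gave 118 genes between genotypes, a variance per group 25, leaving out 18-month replicates 4 and 5 gave 7, and leaving out 5 and 6, chosen after seeing the data, gave 1. The 3 general members called with age became 5 with array weights, quantile normalization or without 18-month replicates 4 and 5, and striated calls became 0 without replicates 5 and 6. The cause was not tested. Leaving out each array in turn gave 0 to 2 genes between genotypes, 0 striated and 0 general members there, and 4290 to 5740 genes, 1 to 9 striated and 2 to 5 general members with age (5 without 18-month replicate 4).

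The replicate number as a block took Myh4 to an adjusted p of 0.0511, Car3 to 0.059 and Pdgfrb to 0.0518; striated calls were then 2. Same-numbered deviations correlated between -0.14 and 0.33, over 0.1 in 4 of 6 pairs of the age comparison and 1 of 6 of the genotype comparison. Of 12 arrays 6 and 2 correlated best with their own number. The labels give no pairing, and the numbers were not taken as one.

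Small uncalled differences changed sign. Between genotypes array weights gave Mybpc1 0.35, Myh7 0.14, Myom1 0.12 and Tnnt1 0.072. With age array weights gave Myl12b 0.014, Myl3 0.15 and Myl9 0.090, median centring gave Myl12b 0.014, Myl3 0.0092, Myl9 0.012 and Tnni3k 0.012, quantile normalization gave Myl3 0.011 and Tnni3k 0.0091, and the mean over probe sets gave Myl12b 0.013. Without 18-month replicates 4 and 5 Myh7 was 0.059, Myl3 0.19 and Myl9 0.065. Without 5 and 6 Actn2 was 0.092, Mybpc3 0.022, Myh2 0.13, Myh3 0.0050, Myh7 0.12, Myl3 0.27 and Myl9 0.051. Leaving out 1 array gave, between genotypes, Mybpc1 -0.45 to 0.13, Myh7 -0.54 to 0.26, Tnnt1 -0.37 to 0.088, Myh14 -0.091 to 0.049, Myl7 -0.068 to 0.027, Actn2 -0.33 to 0.31, Tnni1 -0.25 to 0.20 and Tnnc1 -0.34 to 0.043. With age it gave Myl12b -0.050 to 0.063, Myl9 -0.10 to 0.047, Tnnc1 -0.15 to 0.18, Tnni3k -0.044 to 0.026, Tnnt1 -0.12 to 0.23, Myl3 -0.39 to 0.15, Myh7 -0.63 to 0.054 and Mybpc1 -0.095 to 0.55. Medians of all genes moved by under 0.1 under either scaling. Signal over background limits Myh13, Myl2, Myoz2 and Tnni3, whose means were low. It may also limit Myh6 (mean 6.54), Myh3 (6.44) and Tnnt1 (6.34), which lay little above the filter.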
